A study of Mus musculus with 15 samples.

Results

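The ATP-binding cassette (ABC) transporter genes were taken as the protein-coding genes whose symbol has the form Abca to Abcg followed by a number and at most 1 letter. This rule found 50 genes among the 45905 genes of the tables, of which 22006 are protein-coding. They were followed through 15 mouse poly(A) RNA libraries in 5 groups of 3. The Tamoxifen organoids carry the code T41, a floxed Jup gene and iVilCre ERT2, a Cre recombinase that the villin promoter drives and tamoxifen switches on. The DMSO and nativ organoids both carry the code T75 and the floxed Jup gene without Cre, so all 9 organoid libraries share JUPfl/fl. DMSO is a solvent, and what nativ stands for is not explained. The 6 gut libraries are described as ctr (codes T50, T51 and T52) and PG_KO (codes T47, T48 and T56). Their titles give iVilCre ERT2 JUPfl/fl to the ctr libraries, and DSS colitis with JUPfl/fl to the PG_KO libraries. The titles therefore go against the descriptions, and which animals received DSS, a detergent-like polymer that injures the colon lining, is not settled. Ages and doses are not given in the sources used here.

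Jup, the targeted gene, encodes plakoglobin of cell junctions. In CPM (counts scaled by the library total), it lay at 69.0, 70.9 and 71.2 in Tamoxifen organoids, 360 to 414 in DMSO and 275 to 395 in nativ. In gut it lay at 75.2 to 82.8 CPM in PG_KO and 302 to 495 CPM in ctr, so low Jup went with the descriptions, by which the groups are named. Villin drives the Cre in intestinal epithelium alone, and other cells of the gut wall keep the gene. Each organoid group has a single code, so that Cre, code and treatment change together between Tamoxifen and the other organoids and cannot be told apart. Nothing says whether libraries of an organoid group came from separate cultures, and p-values then measure only the spread between these samples. That spread, as chi2 per df against counting error, was smallest for pairs of Tamoxifen libraries, at 2.21, 3.41 and 3.72. DMSO pairs gave 29.6 to 57.4, nativ pairs 7.99 to 105, ctr pairs 78.9 to 203 and PG_KO pairs 52.4 to 94.5. Whether the Tamoxifen libraries are repeats of a single culture was not tested. Small p-values of the Tamoxifen comparisons rest in part on this small spread. Totals were 25185053 to 30744563 reads per organoid library and 23194385 to 29257641 per gut library, and 3 reads in a library equal 0.0976 to 0.129 CPM. Such floors and the counting intervals given here cover counting error only.

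The organoid cultures differed in what kind of epithelium their RNA reflects. The 10 enterocyte markers summed to 9529 to 10580 CPM in Tamoxifen organoids, 1.15 to 2.05 CPM in DMSO and 2.23 to 12.9 CPM in nativ. Paneth, goblet and colonocyte markers showed the same order, with Paneth sums of 3459 to 3551 CPM, 0.119 to 0.135 CPM and 0.0348 to 2.94 CPM. The 39 Hox genes summed to 41.1 to 46.4 CPM in Tamoxifen organoids, at most 0.381 CPM in the T75 libraries, and 423 to 787 CPM in gut. Cdx2, a factor of intestinal identity, stood at 326 to 334 CPM in Tamoxifen organoids, at 16.3 ± 1.31 in DMSO (SD, n = 3, as for every value given with ±) and at 16.6 ± 1.09 in nativ. The labels call all 9 cultures gut organoids, yet the defining markers of absorptive, Paneth and hindgut cells are at or near 0 in the 6 T75 libraries. Treh has no read in either T75 group. Stem and crypt markers were present there, with sums of 63.4 to 149 CPM, beside 287 to 322 in Tamoxifen. Goblet sums were 26.9 to 145 CPM in T75 libraries and 1029 to 1089 in Tamoxifen. Every ABC difference between Tamoxifen and T75 organoids below, higher or lower, lies between groups that also differ in these markers. Their part in it was not tested. In bulk RNA, fewer cells of a type and less RNA per cell cannot be told apart. In gut libraries the colonocyte sums of 802 to 6712 CPM exceeded the enterocyte sums of 224 to 513 CPM.

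ABC proteins bind and split ATP to move molecules across membranes. In the intestine some sit on the lumenal side of enterocytes and return drugs, conjugates or plant sterols to the lumen, others face the blood, and others serve mitochondria, lysosomes or peroxisomes. The E and F members have no membrane span and act on ribosomes. The 50 genes were sorted into 11 efflux pumps for drugs and conjugates, 7 exporters of sterols and bile lipids, 15 other lipid transporters of the A family, 5 B-family members of mitochondria and lysosomes, 4 D-family members, 4 soluble ATPases, 3 other C-family members and Abcg3, whose role is not stated here.

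Reads of the family were spread over few genes. Summed over all 50 members, the level was 3449 to 3615 CPM in Tamoxifen organoids, 2056 to 2975 in DMSO, 1247 to 1933 in nativ, 1574 to 1801 in ctr gut and 1630 to 1734 in PG_KO gut. The Tamoxifen libraries lay above all 12 others. Per kilobase of exon, the leading 5 genes of each library held 46.6% to 64.6% of the family sum. In each Tamoxifen library these were Abcg5, Abcb1a, Abcd3, Abcc2 and Abcg8. Abcc3 led in all 6 T75 libraries, and Abcf1 or Abcd3 led in the 6 gut libraries. Sterol and bile lipid exporters took 23.1% to 23.6% of the family sum per kilobase in Tamoxifen organoids, 0.563% to 0.810% in T75 organoids and 1.63% to 6.19% in gut. The number of members without a read in the 3 libraries of a group was 6 in Tamoxifen, 6 in DMSO, 8 in nativ and 2 in each gut group, where Abca16 and Abcb5 are listed at 0.

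**Figure D1:**
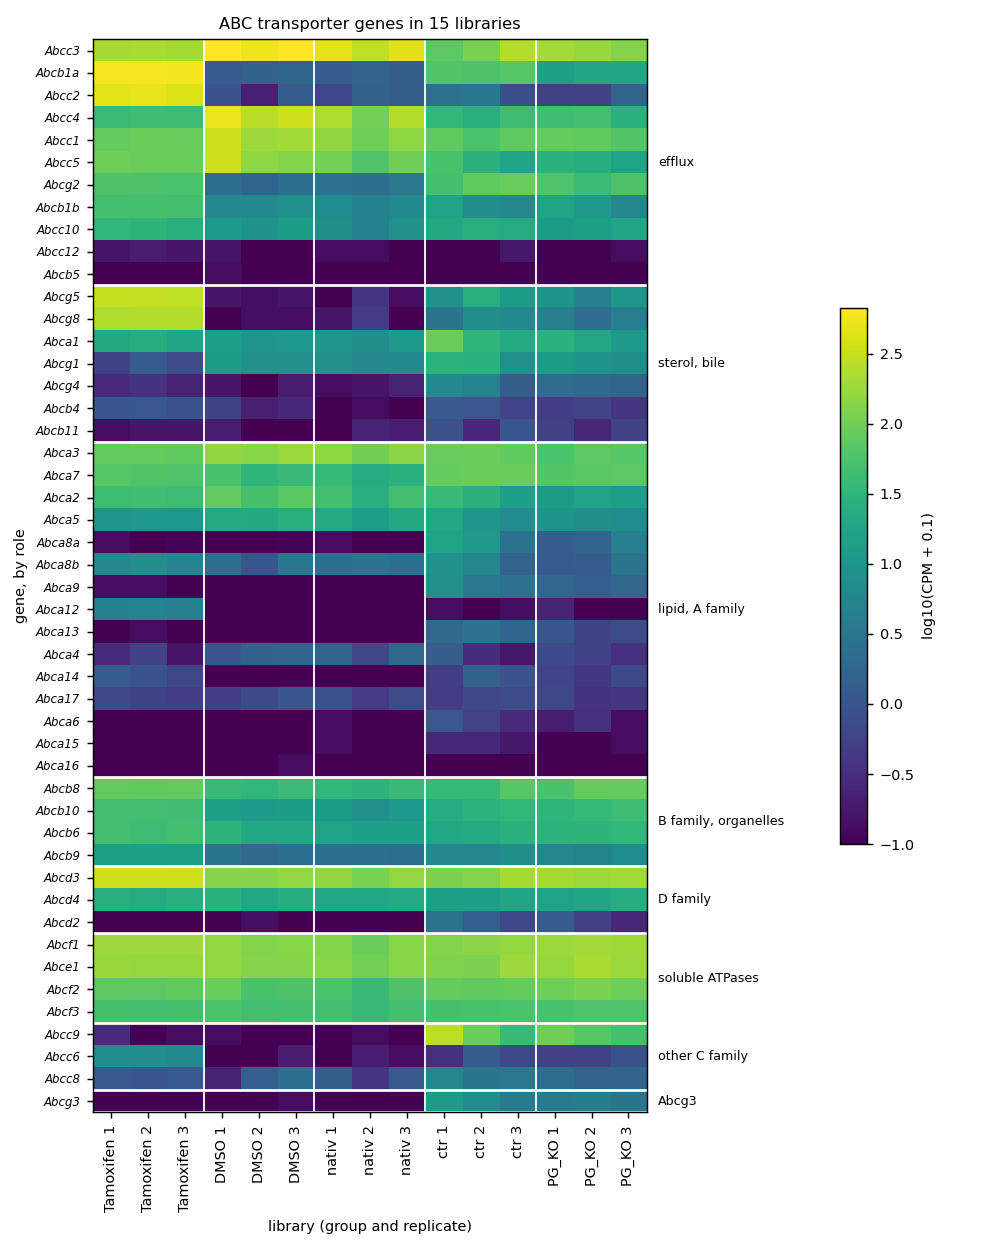
Levels of 48 of the ABC genes (rows, ordered by role and then by highest group mean) in the 15 libraries (columns) as log10 of CPM plus 0.1, with dark colour for low and yellow for high. Abcb1a, Abcc2, Abcg5 and Abcg8 are bright in the 3 Tamoxifen columns and dark in the 6 DMSO and nativ columns, while Abcc9, Abca8a and Abcg3 are dark in organoids and visible in gut.

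Between Tamoxifen and DMSO organoids most of the measured family changed, in both directions. Of 37 members that passed the filter on low counts, 22 were higher in Tamoxifen, 9 were lower and 6 were not called (edgeR quasi-likelihood test, adjusted p under 0.05 over all 16449 tested genes). This is 83.8% of the tested members, beside 66.3% of all tested genes, of which 33.9% were higher and 32.4% lower. Calls over 2-fold numbered 25 of the 37, beside 35.3% of all genes. The median log2 change was 0.81 over the members and 0.02 over all genes, and the median size of change without its sign was 1.54 and 0.66. Tamoxifen lay wholly above DMSO in CPM for 23 members and wholly below for 9, beside 41.8% and 34.4% of all tested genes, or 76.2% in all. DESeq2 called 22 higher and 9 lower, beside 67.2% of all genes. Against nativ organoids, in a comparison that shares the Tamoxifen libraries, 24 members were higher, 7 lower and 6 not called, again 83.8% beside 66.9% of all genes, of which 33.5% were higher and 33.5% lower. There 24 calls were over 2-fold, beside 36.3%. The groups were apart for 26 members above and 7 below, beside 43.0% and 31.6%, or 74.7% in all, and DESeq2 called 24 and 7, beside 67.4%. The other 13 members had too few reads for the test in organoids.

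Pumps of the lumenal membrane had the strongest rises among the efflux genes. Abcb1a and Abcb1b are the mouse pair that stand for the human multidrug pump P-glycoprotein. Abcb1a lay at 607, 595 and 577 CPM in Tamoxifen organoids, at 1.15, 1.45 and 1.61 in DMSO, and at 1.20, 1.54 and 1.25 in nativ. The 3 Tamoxifen libraries were far above the 6 others, which overlapped among themselves. It rose by 8.66 on the log2 scale against DMSO (SE 0.17, edgeR adjusted p = 1.1e-10) and 8.69 against nativ (SE 0.17, adjusted p = 1.01e-10). Its neighbour Abcb1b, which begins 49571 bases beyond the end of Abcb1a on chromosome 5, lay at 49.98, 51.3 and 50.3 CPM in Tamoxifen, 6.46, 6.65 and 8.26 in DMSO, and 7.26, 4.66 and 6.47 in nativ. It rose by 2.76 on the log2 scale against DMSO (SE 0.14, adjusted p = 2.35e-08) and by 2.93 against nativ (SE 0.14, adjusted p = 1.63e-08). In T75 organoids Abcb1b was the higher of the pair and in Tamoxifen organoids Abcb1a was, with means per kilobase of 10.6 and 109 CPM there. The pair are close copies. The fractional remainder of a library's count was at most 1.37% of the count for Abcb1a and 0.372% for Abcb1b. Such a remainder is always below a whole read, so it does not show how many reads were shared with another place.

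Abcc2, which exports glucuronide and glutathione conjugates, lay at 465, 501 and 428 CPM in Tamoxifen organoids, 0.846, 0.119 and 1.18 in DMSO, and 0.524, 1.39 and 1.25 in nativ. The change was 9.22 on the log2 scale against DMSO (SE 0.43, adjusted p = 1.61e-08) and 8.66 against nativ (SE 0.41, adjusted p = 2e-08). Abcg2, the breast cancer resistance protein of lumenal membranes, lay at 57.3, 58.2 and 56.0 CPM in Tamoxifen, 2.30, 1.63 and 2.29 in DMSO, and 2.75, 2.29 and 3.24 in nativ, a rise of 4.71 (SE 0.14, adjusted p = 5.72e-10) and 4.26 (SE 0.13, adjusted p = 9.3e-10). Abcc10, a broad drug pump, was higher by 1.35 (SE 0.17) and 1.97 (SE 0.18), with 29.6 ± 4.31 CPM in Tamoxifen, 11.1 ± 1.84 in DMSO, and 7.92, 4.75 and 8.34 in nativ. Over the 6 gut libraries Abcg2 lay at 40.3 to 86.9 CPM, a range that holds the Tamoxifen levels, and Abcc10 at 13.0 to 26.2 CPM. Abcb5 and Abcc12 had at most 7 reads in any group.

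The bases in front of the pair and of Abcc2 are shown because these genes share a direction of change with different sizes. They are 250 bases on the strand of the gene in GRCm38.p6, from the RefSeq promoter table of that build, which holds 38 of the 50 members. Capitals mark the boxes GGGCGG (GC box) and CCAAT, searched on both strands, so that ATTGG marks CCAAT on the other strand.
Abcb1a, chr5:8566841-8567090, plus strand: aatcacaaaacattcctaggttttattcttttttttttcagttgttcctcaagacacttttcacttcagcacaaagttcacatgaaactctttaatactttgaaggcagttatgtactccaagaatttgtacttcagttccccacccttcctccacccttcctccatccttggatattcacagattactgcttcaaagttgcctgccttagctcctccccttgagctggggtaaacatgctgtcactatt
Abcb1b, chr5:8797897-8798146, plus strand: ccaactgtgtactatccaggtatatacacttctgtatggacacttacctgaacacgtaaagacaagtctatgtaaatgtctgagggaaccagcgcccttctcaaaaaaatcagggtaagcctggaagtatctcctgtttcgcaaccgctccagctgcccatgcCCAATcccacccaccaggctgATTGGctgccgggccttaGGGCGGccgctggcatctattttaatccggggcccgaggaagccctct
Abcc2, chr19:43782058-43782307, plus strand: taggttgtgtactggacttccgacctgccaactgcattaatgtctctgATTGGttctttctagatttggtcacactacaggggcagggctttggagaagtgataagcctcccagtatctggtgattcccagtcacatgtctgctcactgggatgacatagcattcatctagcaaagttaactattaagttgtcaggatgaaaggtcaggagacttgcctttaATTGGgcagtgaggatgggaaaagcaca
The Abcb1b stretch holds 1 GC box and 2 CCAAT boxes, the Abcc2 stretch holds 2 CCAAT boxes, and the Abcb1a stretch holds neither. Over all 32851 promoters of the table, 32.7% hold a GC box and 33.8% a CCAAT box in this window.

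The pumps Abcc1, Abcc3, Abcc4 and Abcc5 went the other way. Abcc3, an exporter of glucuronides and bile salts and the most abundant member in T75 organoids, lay at 211, 222 and 204 CPM in Tamoxifen, 652, 539 and 674 in DMSO, and 474, 294 and 461 in nativ. It fell by 1.61 on the log2 scale against DMSO (SE 0.14, adjusted p = 2.33e-06) and by 1.05 against nativ (SE 0.14, adjusted p = 6.16e-05), with no overlap of groups. Abcc4, which exports cyclic nucleotides and prostaglandins, lay at 40.7, 43.3 and 42.2 CPM, then 518, 269 and 343, then 224, 107 and 247. It fell by 3.22 (SE 0.28, adjusted p = 2.34e-06) and 2.29 (SE 0.27, adjusted p = 2.73e-05). Abcc1, an exporter of glutathione conjugates and leukotriene C4, fell by 1.55 (SE 0.21) and 0.76 (SE 0.21), from 242 ± 88.1 CPM in DMSO and 136 ± 33.2 in nativ to 86.2 ± 2.75. Abcc5, another exporter of cyclic nucleotides, fell by 1.25 against DMSO (SE 0.31, adjusted p = 0.00439), but stood at 91.4 ± 3.43 CPM in Tamoxifen and 89.2 ± 26.7 in nativ, a difference of -0.06 (SE 0.30, adjusted p = 0.863). Without DMSO replicate 1 and nativ replicate 2 that difference was -0.26 and passed the test (adjusted p = 0.0109). In sum 5 of 9 tested efflux genes rose and 4 fell against DMSO, and 5 rose and 3 fell against nativ, beside 66.3% and 66.9% of all tested genes called, split about evenly by direction.

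**Figure D2:**
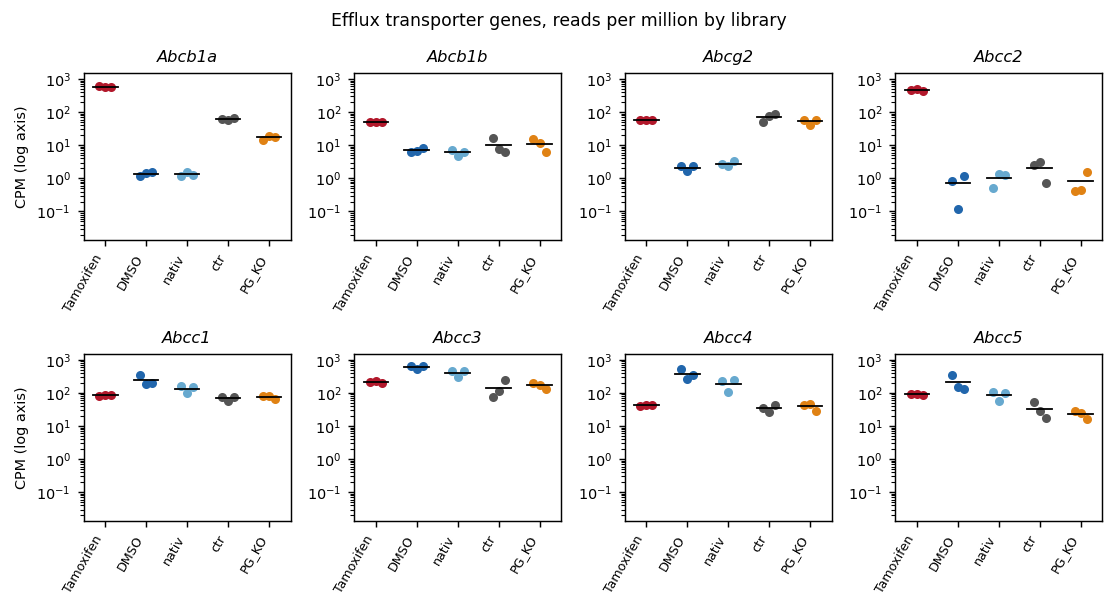
CPM of 8 efflux genes on a log axis, with 1 dot per library and a bar at the mean of each group of 3. Abcb1a, Abcb1b, Abcg2 and Abcc2 are highest or near highest in Tamoxifen organoids, and Abcc1, Abcc3, Abcc4 and Abcc5 are highest in DMSO organoids.

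Among sterol and bile lipid exporters the Abcg5 and Abcg8 pair changed most. Their proteins join into 1 pump that sends plant sterols and cholesterol back to the lumen. Abcg5 lay at 311, 301 and 292 CPM in Tamoxifen organoids, 0.0677, 0.0397 and 0.0656 in DMSO, and 0, 0.277 and 0.0348 in nativ. Abcg8 lay at 238, 244 and 242 CPM, then 0, 0.0397 and 0.0328, then 0.0655, 0.347 and 0. Both were plain in the 3 Tamoxifen libraries and at the limit of detection in the 6 others, and the highest of these 6 for both was nativ replicate 2. That library also held the highest enterocyte and Paneth sums of the T75 libraries. Abcg5 was higher by 12.16 on the log2 scale against DMSO (SE 0.38, edgeR adjusted p = 9.17e-10) and by 11.35 against nativ (SE 0.36, adjusted p = 1.04e-09), and by 13.73 without nativ replicate 2. For Abcg8, 21386 reads in Tamoxifen stood against 2 reads in DMSO, a ratio of CPM of 10290 (95% counting interval 2848 to 84960). Against nativ its log2 change was 10.63 (SE 0.38, adjusted p = 2.28e-09), and 12.57 without nativ replicate 2. Per kilobase of exon the Tamoxifen means were 125 CPM for Abcg5 and 64.4 for Abcg8. The annotated genes overlap by 6710 bases on opposite strands, and the strand setting of the counting is not given in the sources used here, so reads inside the overlap could belong to either.

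The 109 bases between the start of Abcg5 and a start of Abcg8, genes that run in opposite directions, are shown because both moved together. In the RefSeq promoter table, this Abcg8 start is base 84683121 of chromosome 17 on the plus strand. Abcg5 starts at 84683011 on the minus strand. The Abcg8 gene as counted begins at 84676302, inside Abcg5, so the start used here is not its first annotated base. The plus strand is printed, and capitals mark TTATCT, which is the GATA box AGATAA on the other strand.
Abcg8 and Abcg5, chr17:84683012-84683120, plus strand: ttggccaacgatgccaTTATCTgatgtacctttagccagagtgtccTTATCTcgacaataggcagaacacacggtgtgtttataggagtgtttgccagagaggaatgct
The stretch holds 2 GATA boxes and no GC or CCAAT box. Of the 32851 promoters of the table, 3.98% hold a GATA box in the 109 bases before the start and 0.186% hold at least 2. A match of letters is a description and not a site.

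Abca1 and Abcg1, which hand cholesterol to lipoproteins, moved in opposite directions in organoids. Abca1 lay at 21.3, 23.9 and 18.2 CPM in Tamoxifen, 13.2, 10.4 and 11.1 in DMSO, and 10.1, 7.80 and 11.4 in nativ, and rose by 0.81 (SE 0.14, adjusted p = 0.000465) and 1.00 (SE 0.14, adjusted p = 0.000101). Abcg1 lay at 0.468, 1.14 and 0.680 CPM in Tamoxifen, 11.9, 8.66 and 8.29 in DMSO, and 8.48, 6.24 and 6.58 in nativ, and fell by 3.71 (SE 0.28, adjusted p = 7.27e-07) and 3.32 (SE 0.28, adjusted p = 1.88e-06). Abcb4, the phosphatidylcholine flippase of bile, was low everywhere, at 0.905 ± 0.0923 CPM in Tamoxifen, 0.252 ± 0.193 in DMSO and a single read in nativ. It was called higher against DMSO by 1.73 (SE 0.46), and by 2.54 without DMSO replicate 1. Against nativ its reads of 80.5 and 1 gave a ratio of 80.1 (95% counting interval 13.9 to 3181). Abcb11, the bile salt export pump, and Abcg4 stayed under 0.3 CPM in each organoid library and were not tested there.

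**Figure D3:**
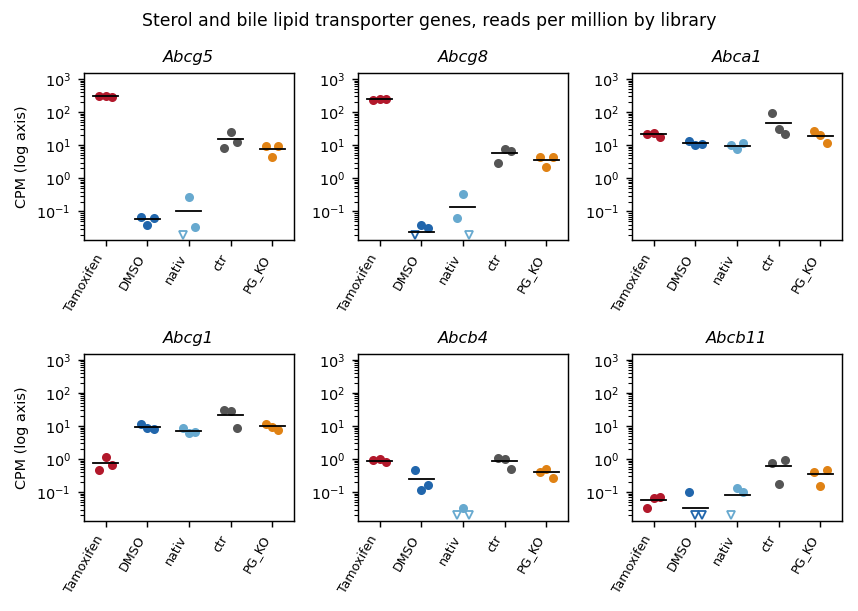
CPM of 6 sterol and bile lipid exporters on a log axis, with 1 dot per library, a bar at each group mean, and open triangles at the lower edge for libraries without a read. Abcg5 and Abcg8 stand near 300 and 240 CPM in Tamoxifen organoids, at 0.4 CPM or less in DMSO and nativ, and between these in gut, whereas Abcg1 is lowest in Tamoxifen organoids.

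The other lipid transporters of the A family were split. Of 9 tested members, 4 rose and 4 fell against DMSO, and 4 rose and 3 fell against nativ, beside the same 66.3% and 66.9% of all genes. Abca12, which loads lipids into granules of skin cells, lay at 4.71, 4.94 and 4.36 CPM in Tamoxifen and had no read in the 6 T75 libraries, so it was at least 133-fold higher than in DMSO and at least 138-fold higher than in nativ, against 3 reads over the group. Abca14, a gene of a chromosome 7 cluster, had 76 reads in Tamoxifen and none in T75 organoids, at least 24.4-fold and 25.2-fold higher. Abca3, known from the lamellar bodies that hold lung surfactant, lay at 80.2, 85.0 and 79.0 CPM in Tamoxifen, 154, 140 and 179 in DMSO, and 149, 98.2 and 146 in nativ. It fell by 1.02 (SE 0.12, adjusted p = 2.6e-05) and 0.79 (SE 0.12, adjusted p = 0.000166), and 138 bases of it overlap Abca17 on the other strand. Abca5, a lysosomal member, fell by 1.15 (SE 0.14) and 0.88 (SE 0.14), to 10.8 ± 0.335 CPM. Abca8b rose by 1.54 (SE 0.33) and 1.25 (SE 0.32), to 6.48 ± 1.40 CPM, while its neighbour Abca8a had at most 1.25 reads in any organoid group. Abca7, which moves phospholipids and acts in phagocytosis, rose by 0.53 against DMSO (SE 0.17, adjusted p = 0.0178) and by 1.01 against nativ (SE 0.17, adjusted p = 0.000407), but the first lost its call without Tamoxifen replicate 1 (adjusted p = 0.0633), DMSO replicate 2 (0.0717) or DMSO replicate 3 (0.0601). Abca2, a transporter of lysosomes, was lower than in DMSO by 0.68 (SE 0.20, adjusted p = 0.0101), with 43.7 ± 0.941 CPM against 67.1 ± 14.7, and stood at 40.8 ± 13.7 CPM in nativ.

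All 5 B-family members of mitochondria and lysosomes rose in Tamoxifen organoids in both comparisons, beside 33.9% and 33.5% of all tested genes called higher. Abcb10, which aids heme synthesis, lay at 46.8, 46.1 and 45.0 CPM in Tamoxifen, 14.3, 11.6 and 12.4 in DMSO, and 12.1, 8.18 and 10.8 in nativ, a rise of 1.78 (SE 0.12, adjusted p = 1.94e-07) and 2.04 (SE 0.12, adjusted p = 7.16e-08). Abcb9, a lysosomal peptide transporter, rose by 2.51 (SE 0.16) and 2.47 (SE 0.16), from 2.42 ± 0.558 and 2.39 ± 0.0859 CPM to 14.4 ± 0.337. Abcb8 of the mitochondrial inner membrane rose by 1.03 (SE 0.09) and 1.09 (SE 0.09). Abcb6, a porphyrin transporter, rose by 0.91 (SE 0.15) and 1.46 (SE 0.16).

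Of the D family, Abcd3 was the leading member in all groups. It encodes a major protein of the peroxisomal membrane that imports branched fatty acids and bile acid precursors. Its levels were 352, 360 and 344 CPM in Tamoxifen, 136, 137 and 161 in DMSO, and 156, 115 and 163 in nativ, and it rose by 1.22 (SE 0.10, adjusted p = 2.13e-06) and 1.17 (SE 0.10, adjusted p = 2.97e-06). Abcd4, a lysosomal member for cobalamin, was not called, at 24.6 ± 1.56, 23.6 ± 4.34 and 20.1 ± 1.45 CPM. Abcd2 had at most 1 read in any organoid group.

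The soluble ATPases differed least. Abce1, which splits ribosomes after translation, lay at 169 ± 2.65 CPM in Tamoxifen, 145 ± 15.7 in DMSO and 130 ± 21.8 in nativ, with changes of 0.15 (SE 0.10, adjusted p = 0.199) and 0.27 (SE 0.10, adjusted p = 0.0319). Abcf1, which acts in translation initiation, was called in both comparisons at 0.32 (SE 0.11, adjusted p = 0.0256) and 0.50 (SE 0.11, adjusted p = 0.00212). The first of these calls was lost without any 1 of Tamoxifen replicates 1, 2 and 3 or DMSO replicates 2 and 3, with adjusted p from 0.0624 to 0.0882. Abcf2 was called against nativ, at 0.45 (SE 0.16, adjusted p = 0.0314), and stood at 0.10 against DMSO (SE 0.16, adjusted p = 0.601). Without DMSO replicate 1 it was called there too, at 0.34 (adjusted p = 0.0233), and without DMSO replicate 1 and nativ replicate 2 so were both Abcf2 (0.32, adjusted p = 0.000765) and Abce1 (0.20, adjusted p = 0.00684). The call of Abcf2 against nativ was lost without any 1 Tamoxifen replicate and without nativ replicate 1 or 2 (adjusted p from 0.0613 to 0.0948). The call of Abce1 against nativ was lost without any 1 Tamoxifen replicate, without nativ replicate 2, and without the low-count filter (adjusted p from 0.0662 to 0.103). Abcf3 was called in neither comparison, with 51.1 ± 0.339, 51.0 ± 4.35 and 45.2 ± 6.33 CPM.

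Of the other C-family members, Abcc6 was called. It is the gene of pseudoxanthoma elasticum, a disease of soft-tissue calcification, and lay at 7.34, 7.47 and 6.40 CPM in Tamoxifen, with 3 reads in DMSO and 4 in nativ. The ratio to DMSO was 201 (95% counting interval 68.6 to 979). Abcc8, the regulator of a potassium channel of endocrine cells, was at 1.01 ± 0.0841, 1.29 ± 1.15 and 0.867 ± 0.517 CPM and was not called. Without DMSO replicate 1 and nativ replicate 2 it was called lower than in DMSO, at -1.01 (adjusted p = 0.00469). Abcc9 had 7 reads in Tamoxifen, and 1 each in DMSO and nativ.

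DMSO and nativ organoids share the T75 code and the lack of Cre. What else differs between them is not given, so a difference cannot be assigned to the solvent. By edgeR none of the 37 tested members was called, and 0% of all 16449 genes were. At an unadjusted p under 0.05 there were 11 members and 2408 genes. DESeq2 called 4 members, all higher in DMSO, beside 1.05% of all genes it tested. These were the 4 efflux genes Abcc1 (log2 0.80, DESeq2 adjusted p = 0.0371), Abcc3 (0.57, 0.0176), Abcc4 (0.94, 0.0406) and Abcc5 (1.19, 0.0190). Abcc5 lay at 341, 149 and 133 CPM in DMSO and 108, 58.7 and 101 in nativ, so that DMSO replicate 1 stood apart within its group and nativ replicate 2 was low. In edgeR its log2 change was 1.18 (SE 0.31, adjusted p = 0.291), and 0.48 without these 2 libraries. In edgeR, Abcb6 was at 0.55 (SE 0.15), Abca2 at 0.68 (SE 0.20) and Abcc10 at 0.62 (SE 0.18), each with an adjusted p of 0.291. All 3 DMSO libraries lay above all 3 nativ libraries for 8 members, and below them for 0, beside 7.08% and 7.0% of all tested genes.

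In gut, no member passed the edgeR test between PG_KO and ctr, and 0% of all 18043 tested genes did. Even Jup, at 75.2 to 82.8 CPM in PG_KO and 302 to 495 in ctr, failed it (log2 -2.29, adjusted p = 0.163). Jup passed without the low-count filter (edgeR adjusted p = 0.0289), without ctr replicate 3 (0.0329) and with DESeq2 (2.28e-14). The lack of calls in the main fit therefore does not show that the members were unchanged. At an unadjusted p under 0.05 there were 14 of the 44 tested members and 2705 genes. The median log2 change was -0.47 over the members and -0.03 over all genes. Abcb1a had the smallest p of the family. It lay at 61.7, 57.1 and 65.5 CPM in ctr and at 14.7, 18.5 and 18.3 in PG_KO, so the groups were well apart. On the log2 scale this was -1.83 (SE 0.14, edgeR adjusted p = 0.077, with 2.69e-22 to 0.604 over all settings). DESeq2 called it lower (adjusted p = 2.69e-22), as its only member among 2.76% of all genes. The colonocyte markers moved the same way, with sums of 4050, 6712 and 2746 CPM in ctr and 1198, 802 and 1509 in PG_KO, as did goblet markers, at 3337 to 9634 and 487 to 1362 CPM. Their part in the Abcb1a difference was not tested. The enterocyte sums overlapped, at 224 to 513 and 314 to 354 CPM, and the median log2 change of the 5 tested crypt markers was 0.68.

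Gut groups were wholly apart for 10 members. Abcf1, Abcf2 and Abcb6 were above ctr in all 3 PG_KO libraries, and Abcb1a, Abca13, Abca9, Abcc8, Abca7, Abcc10 and Abca3 below, beside 9.97% and 8.67% of all tested genes. Abca13, a very large A-family gene, lay at 1.93, 2.80 and 1.61 CPM in ctr and 0.951, 0.475 and 0.684 in PG_KO (log2 -1.55, SE 0.44, adjusted p = 0.33 in edgeR). Abcc10 was at -0.60 (SE 0.20), Abca7 at -0.38 (SE 0.12) and Abca3 at -0.36 (SE 0.13), each with an adjusted p of 0.33. Abcf1 was at 0.37 (SE 0.15), Abcf2 at 0.34 (SE 0.14) and Abcb6 at 0.46 (SE 0.19). Without ctr replicate 3, edgeR called 6 members beside 7.91% of all genes, Abcb8 and Abce1 as higher and Abcb1a, Abca2, Abcg1 and Abcg4 as lower. Abcg1 lay at 29.9, 27.7 and 8.68 CPM in ctr and 11.9, 9.62 and 7.86 in PG_KO, so ctr replicate 3 was within the range of the PG_KO libraries. Its log2 change was -1.14 (SE 0.46), and -1.48 without that library (adjusted p = 0.0394). Abca1 lay at 92.0, 32.0 and 21.6 CPM in ctr and 27.3, 19.8 and 11.7 in PG_KO, with a change of -1.26 (SE 0.57), and -0.45 without ctr replicate 1. Macrophage marker sums were 1176, 438 and 290 CPM in ctr and 370, 306 and 130 in PG_KO, and sums of B and plasma cell markers were 2067, 1040 and 648 in ctr and 399, 359 and 297 in PG_KO. Both had the same order of libraries as these 2 genes within each group. Sums of fibroblast, endothelium, smooth muscle and pericyte, T and NK, and neuron and glia markers had this order in ctr but not in PG_KO. Neutrophil sums had it in PG_KO but not in ctr. The part of these cell types was not tested.

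Some members had reads in gut and next to none in organoids. For 6 of them, Abca13, Abca8a, Abca9, Abcc9, Abcd2 and Abcg3, a gut group reached 1 CPM while every organoid group stayed under 0.1 CPM. In 5 of the 6, Abca13 apart, ctr replicate 1 was the highest gut library, as it was for 16 of the 44 tested members and 36.4% of all tested genes. Abcc9 encodes the sulfonylurea receptor of potassium channels in smooth muscle and pericytes. It lay at 278, 89.9 and 37.5 CPM in ctr and 98.8, 65.9 and 51.1 in PG_KO, so the groups overlapped. The log2 change was -0.85 (SE 0.67), and 0.18 without ctr replicate 1. The channel gene Kcnj8, whose protein joins that of Abcc9, lay at 158, 64.4 and 20.7 CPM in ctr and 84.1, 38.6 and 18.0 in PG_KO. The 10 smooth muscle and pericyte markers, Kcnj8 among them, summed to 4793, 3647 and 754 CPM in ctr and 789, 1010 and 1233 in PG_KO, with none at 0. Abca8a lay at 16.7, 11.2 and 2.68 CPM in ctr and 1.20, 1.54 and 4.34 in PG_KO (log2 -2.08, SE 0.75), and Abca9 at 8.24, 3.28 and 2.68 against 1.69, 1.31 and 1.74 (log2 -1.54, SE 0.49, and -0.92 without ctr replicate 1). Fibroblast marker sums were 3786, 2252 and 945 CPM in ctr and 1307, 1410 and 653 in PG_KO. Abcg3 lay at 12.2, 7.11 and 3.86 CPM in ctr and 3.66, 3.92 and 2.90 in PG_KO, and Abcd2, a peroxisomal fatty acid importer, at 2.83, 1.29 and 0.574 against 1.20, 0.435 and 0.171, with overlapping groups for both. In organoids these marker sums were at most 4.78 CPM for smooth muscle and 1.56 CPM for fibroblasts. Their part in the gut differences was not tested.

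**Figure D4:**
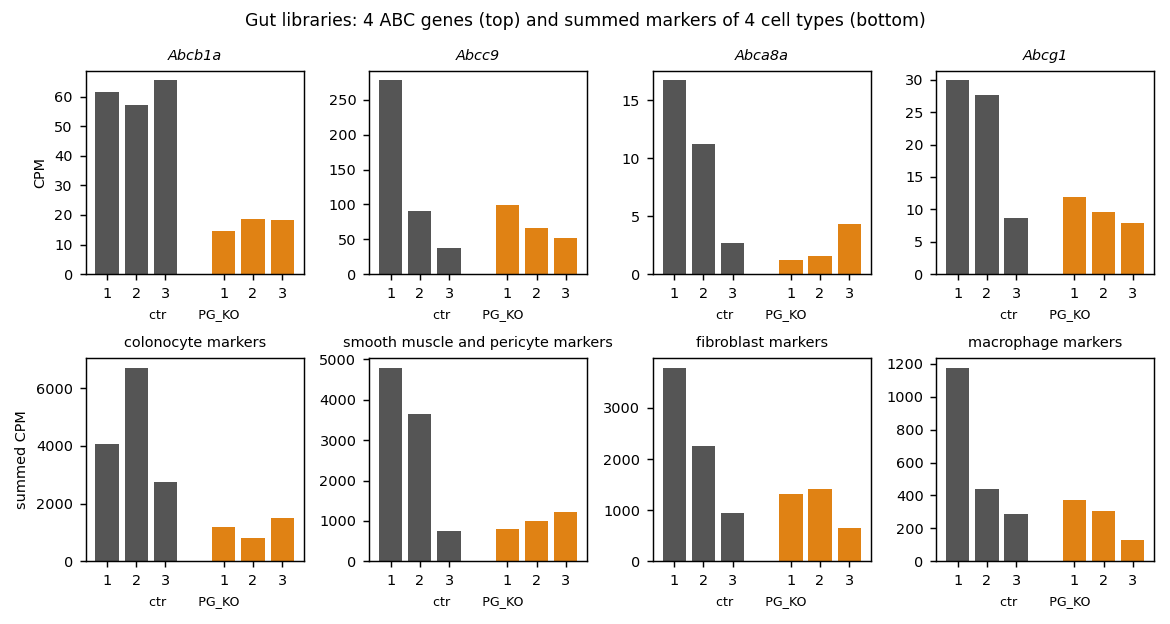
Levels of 4 ABC genes (top, CPM) and summed markers of 4 cell types (bottom, summed CPM) as 1 bar per gut library, ctr in grey and PG_KO in orange, replicates 1 to 3 in each. Abcb1a is higher in all 3 ctr libraries, whereas Abcc9, Abca8a and Abcg1 have ctr replicate 3 within or near the PG_KO range, as the smooth muscle sum does.

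The sterol pair in gut lay between the organoid extremes. Abcg5 was at 8.13, 25.4 and 12.3 CPM in ctr and 9.48, 4.55 and 9.78 in PG_KO, and Abcg8 at 2.90, 7.72 and 6.77 against 4.47, 2.22 and 4.34, with overlapping groups. The log2 changes were -0.93 (SE 0.51) and -0.64 (SE 0.49), and that of Abcg5 was -0.32 without ctr replicate 2. Abcg2 lay at 51.2, 77.0 and 86.9 CPM in ctr and 59.3, 40.3 and 57.7 in PG_KO (log2 -0.44, SE 0.27). Abcc2 was under 3.1 CPM in all gut libraries, beside 428 CPM or more in Tamoxifen organoids.

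A direct test asked whether the change from ctr to PG_KO in gut differed from the change from DMSO to Tamoxifen in organoids, since Jup was low in both PG_KO and Tamoxifen. The 2 pairs differ in tissue, Cre, code and treatment, which cannot be told apart. Of 45 tested members, 5 were higher and 19 lower in gut relative to organoids (edgeR interaction term), or 53.3% beside 36.4% of all genes, of which 15.7% were higher and 20.7% lower. Of these calls 21 were over 2-fold, beside 26.3% of all genes, and DESeq2 called the same numbers, 5 and 19, beside 40.9%. For Abcb1a the gut change was -1.83 and the organoid change 8.66, a difference of -10.54 (SE 0.19, edgeR adjusted p = 2.03e-10). Abcg2, with -0.44 and 4.71, differed by -5.20 (SE 0.33, adjusted p = 1.1e-06). Abcc4, with 0.19 and -3.22, differed by 3.37 (SE 0.36, adjusted p = 4.85e-05). None of the 4 soluble ATPases was called.

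**Figure D5:**
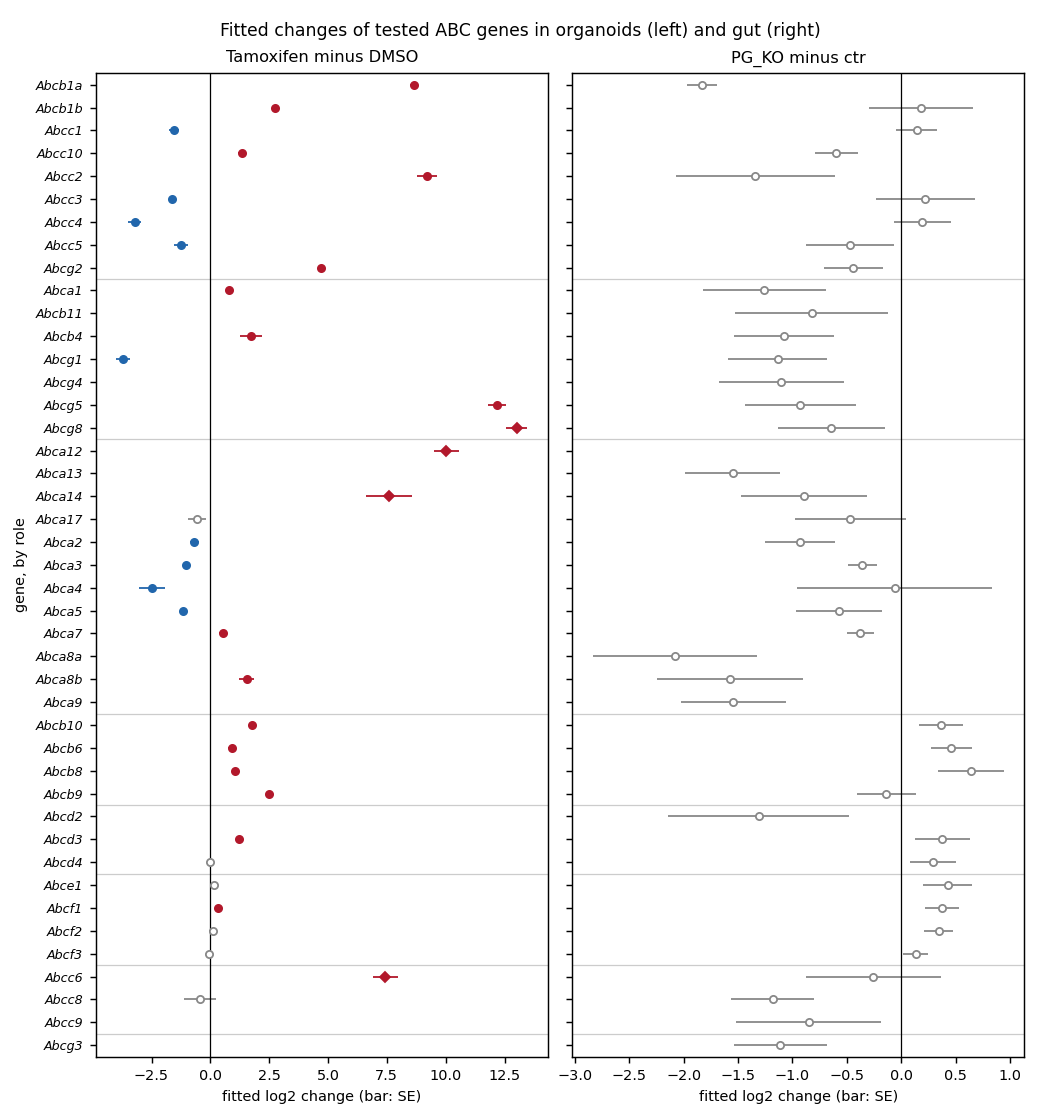
Fitted log2 change with its standard error for tested ABC genes by role, Tamoxifen minus DMSO on the left and PG_KO minus ctr on the right, on axes of different width. Red points were called higher, blue points lower and open points not called by edgeR, and diamonds mark genes with 3 or fewer reads in the DMSO group, whose fitted value depends on the prior count. Most points on the left are filled, and all points on the right are open, with Abcb1a farthest from 0 in units of its error.

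Lists of genes that act with the ABC family are given beside the 66.3% of all tested genes called between Tamoxifen and DMSO, 33.9% higher and 32.4% lower. Of 17 tested receptors and factors known to act on ABC genes, 10 were higher and 4 lower in Tamoxifen than in DMSO. Nr1i2, the drug-sensing pregnane X receptor, lay at 56.1, 55.2 and 55.4 CPM in Tamoxifen and 0.203, 0.119 and 0.262 in DMSO (log2 8.03, SE 0.20, adjusted p = 2.7e-10), and the bile acid receptor Nr1h4 was higher by 4.38 (SE 0.16). Ahr, a sensor of aromatic compounds, was lower by 4.68 on the log2 scale (log2 -4.68, SE 0.16), with 13.9 ± 0.992 CPM against 341 ± 20.8. Of 15 sterol and lipid partners, 11 were higher and 3 lower. Npc1l1, which takes up cholesterol from the lumen, stood at 481 ± 21.6 CPM in Tamoxifen and 0.298 ± 0.117 in DMSO, and at 0.170 ± 0.0611 and 0.144 ± 0.0587 in ctr and PG_KO gut. All 5 genes of bile acid uptake and exit were higher, among them Slc10a2, the ileal bile acid carrier, at 134 to 138 CPM against 14.0 to 15.6. Of 24 genes of drug uptake and metabolism, 19 were higher and 1 lower, and of 10 peroxisome genes 6 were higher and 1 lower. The share of peroxisome genes called either way was close to the 66.3% of all genes, but more of their calls were higher. ABC proteins under other symbols differed from each other. Cftr, a chloride channel of the same family, stood at 160 ± 6.88 CPM in Tamoxifen and 0.343 ± 0.133 in DMSO (log2 8.75, SE 0.22), while Tap1, a peptide transporter of antigen presentation, was not called, at 41.2 ± 1.75 and 47.6 ± 13.0, but was called lower without DMSO replicate 1 and nativ replicate 2 (-0.41, adjusted p = 0.028). Its partner Tap2 was called lower, at -0.40 (SE 0.15, adjusted p = 0.0375), with 20.8 ± 0.287 against 26.2 ± 4.22 CPM. That call was lost with library totals and without any 1 Tamoxifen replicate or DMSO replicate 3 (adjusted p from 0.081 to 0.143). In gut none of the tested genes of these lists was called by edgeR.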

How the data were processed

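Poly(A) RNA was sequenced in 9 organoid and 6 gut libraries. Per the labels' protocols, RNA was isolated with TRIZOL (integrity number at least 7.7). The submitters' processing notes name, for the authors' own steps, the genome GRCm38.p6, the aligner STAR (2.7.2b), the counter featureCounts (1.6.4, Subread), trimming by cutadapt (2.5), bcl2fastq (2.20.0.422) and DESeq2. Strand setting and read filters are not given in the sources used here. The deposited values are expected counts per gene, unscaled, in 1 table for organoids and 1 for gut. Of a library's values, 10.4% to 13.7% are fractional, and counts were rounded for the model fits.

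CPM were computed from library totals. Groups were compared with edgeR 4.0.16 in R 4.3.3 (quasi-likelihood, robust, TMM factors, filterByExpr), with p-values adjusted by Benjamini-Hochberg across every gene that passed the filter and a threshold of 0.05. One fit held the 9 organoid libraries, another the 6 gut libraries, and the interaction used 12 libraries. Standard errors were derived from the log2 change and its F statistic. A fold against 0 reads is a lower bound against 3 reads over the group, and 1 to 3 reads give a ratio with a 95% counting interval. Alternatives were DESeq2 1.42.0, limma-voom (3.58.1), RLE factors, library totals, no filter, a 1 CPM filter, fits of the compared libraries, a replicate block, and leaving out each library. Leaving out DMSO replicate 1 with nativ replicate 2 was added after seeing the data. The code was tested on simulated data. Motifs and sequences come from the RefSeq promoter table, which holds 38 of the 50 members. Apart from that, the gene starts of 49 of the 50 members matched those of a RefSeq gene list.

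Members, roles, gene lists and tests were chosen with earlier results of these data known. Named by rule were up to 4 members per role with the smallest p, among those that reached 1 CPM as a group mean, for each Tamoxifen comparison, 6 members in the other comparisons, the pairs Abcb1a with Abcb1b and Abcg5 with Abcg8, and up to 4 genes per context list. Other members were named after their values were seen. The single values of 2 members are not reported here, though all counts and sums include them.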

Additional observations from a re-analysis of the deposited data

Results flagged for a closer look

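These members differed between the change in gut (PG_KO minus ctr) and the change in organoids (Tamoxifen minus DMSO) by a test of the difference itself, the interaction term of an edgeR fit of 12 libraries. Differences are on the log2 scale, and a negative value means a lower or less positive change in gut. The pump genes of the lumenal membrane were at -10.54 for Abcb1a, -2.63 for Abcb1b, -5.20 for Abcg2 and -10.63 for Abcc2. The sterol pair was at -13.14 for Abcg5 and -13.71 for Abcg8, and the fitted size for Abcg8 depends on the 2 reads in DMSO organoids. Positive differences were seen for 4 genes that were among the 9 members lower in Tamoxifen than in DMSO organoids, 1.80 for Abcc3, 3.37 for Abcc4, 1.64 for Abcc1 and 2.51 for Abcg1, and Abca3, also among the 9, was at 0.61. Without ctr replicate 1 the value of Abcb1b was -2.04, and without ctr replicate 3 that of Abcc3 was 2.55. For Abcb1a, Abcc10 and Abca7, all 3 Tamoxifen libraries were above DMSO and all 3 PG_KO libraries below ctr. Other members went the same way in both. All 3 libraries of Tamoxifen and of PG_KO were below their comparison group for Abca3. Abcb6 and Abcf1 were called higher in Tamoxifen than in DMSO and lay above ctr in all 3 PG_KO libraries. The share of all genes with either pattern was not counted, so neither is read as particular to these members. Of all tested genes, 76.2% were apart between Tamoxifen and DMSO and 18.6% between PG_KO and ctr.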

How the results depend on the processing

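The counts of called members between Tamoxifen and the other organoids stayed within 1.5 times under every alternative. Leaving out 1 library at a time gave 20 to 23 higher and 9 lower against DMSO, 22 to 24 higher and 7 lower against nativ, and 5 to 7 higher and 16 to 18 lower for the interaction. DESeq2 called 4 members higher in DMSO than in nativ. In gut 1 member was called lower without a low-count filter and 1 with DESeq2. Without ctr replicate 3, 2 were called higher and 4 lower, while leaving out any other gut library called none (range 0 to 2 higher and 0 to 4 lower). Correlations of the deviations of same-numbered libraries were -0.123 to 0.186 in organoids and -0.183 to 0.289 in gut. Those of differently numbered libraries were -0.154 to 0.147 and -0.306 to 0.215. The ranges overlap, though the highest value of each was of a same-numbered pair. With 3 libraries a group, this cannot decide whether the numbers pair them. With the replicate block, 22 and 9, 24 and 7, 0 and 0, 0 and 0, and 6 and 17 members were called higher and lower in the 5 comparisons, and it hence moved no count by over 1.5 times.

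Signs changed for small differences. Against DMSO, Abcd4, at 0.00 in the main fit, was at -0.011 without a filter, -0.023 in the fit of 6 libraries, and -0.111 to 0.1 over the fits that each left out a library, 6 of them below 0 (-0.111, -0.04, -0.023, -0.022, -0.013 and -0.005). Abcf2 was at -0.006 and -0.007 without DMSO replicate 2 or 3 (range -0.007 to 0.337), and Abcf3 at 0.002 with library totals. Abcc8 was at 0.33 with limma-voom and 0.42 without DMSO replicate 3 (range -1.009 to 0.42). Against nativ, Abcc8 was at -0.28 without nativ replicate 2, also when DMSO replicate 1 was left out too (-0.276 and -0.278), Abcf3 at -0.001 and -0.002 in the same 2 fits (up to 0.093 without nativ replicate 1), and Abcc5 at 0.04 with library totals (0.035) and 0.047 and 0.002 without nativ replicate 1 or 3 (range -0.261 to 0.047). In gut, Abcc9 was at 0.182 without ctr replicate 1 (range -1.247 to 0.182). The cause was not tested. Library totals moved the median of all genes in Tamoxifen minus nativ from 0.01 to 0.13. Depth limits genes at or under 3 reads in both groups, for which no fold is given.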
